A study of Mus musculus with 7 samples.

Results

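The genes followed here mark positions along the front-to-back axis of the developing brain, and were measured in 7 mouse RNA-seq libraries: Otx1, Otx2, Emx1, Emx2, Lhx2, Six3, En1, En2, Gbx2 and Mab21l2. They were taken by symbol from the deposited expression table, and all 10 were found among its 24354 gene symbols. Induced neural stem cells (iNSCs), grown from virus-infected fibroblasts in medium for neural stem cells, are set against neural stem cells taken from embryos and against fibroblasts. All material was dated embryonic day 13.5, and RNA of 2 to 3 biological replicates was pooled into each library, so no group but mcBKSM has a second library.

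The 5 iNSC libraries were DTA, pBKSM, pOKSM, and clones 1 and 3 of mcBKSM. The labels name polycistronic vectors (several factors on 1 vector) and monocistronic vectors (each factor on its own) without saying which line had which; here p is taken for the first and mc for the second, and the other letters are not spelled out in the labels. The fibroblasts behind pBKSM, pOKSM and both clones, like the MEF (mouse embryonic fibroblast) library, were of strain C57BL/6-Pou5f1 x 129X1/SvJ and genotype Oct4-CreER x Rosa26-loxSTOPlox-EYFP, in which Cre driven by Oct4 switches on a yellow reporter. The DTA fibroblasts were Oct4-CreER x Rosa26-loxSTOPlox-DTA, in which the same Cre switches on diphtheria toxin; their strain is given as unknown and their vector is not given. The control neural stem cells (cNSCs) came from OG2/ROSA26 heterozygous female mice and are labelled as cerebral cortex. The labelled strain of cNSC differs from that of the EYFP lines and MEF, and there strain and cell type cannot be told apart; for DTA no comparison of strain can be made. MEFs were made from embryos without head, spinal cord and internal organs.

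In the embryo, Otx2 and Gbx2 are expressed on opposite sides of the boundary between midbrain and hindbrain and repress each other there. Six3 marks the most anterior forebrain and the eye field, while Emx1, Emx2 and Lhx2 act in the dorsal forebrain that becomes cortex. En1 and En2, the vertebrate engrailed genes, are active across the midbrain and anterior hindbrain. All of these encode homeodomain transcription factors except Mab21l2, a relative of mab-21 of Caenorhabditis elegans that is expressed in eye and midbrain and is needed for eye development in the mouse. In bulk RNA, fewer cells of a type and less RNA per cell cannot be told apart, and transcripts found in the same library need not come from the same cells.

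The values are FPKM, fragment counts divided by transcript length and by library size, so levels of different genes can be compared. From the size of the steps between low values, each library held about 11460000 to 17380000 fragments, and 3 fragments on a 2 kb transcript correspond to 0.0959 to 0.142 FPKM. Intervals below are 95% Poisson intervals from these approximate counts and cover counting error only. None of 15 housekeeping genes was at 0 in any library. Their summed level was 6602 FPKM in DTA and 7502 in cNSC, against 11122 to 11966 in the other libraries. The part of this in the patterning differences was not tested. Among the checks of identity, 10 of 10 neural stem cell markers reached 1 FPKM in each iNSC library and in cNSC, against 3 of 10 in MEF, while of 10 fibroblast markers 1 to 4 reached 1 FPKM in the iNSC libraries, 2 in cNSC and 9 in MEF. The collagen gene Col1a1 was at most 0.962 FPKM in iNSCs, 0.242 in cNSC and 440 FPKM in MEF. Other fibroblast markers were not low in every line: Fbln2 was 248.6 FPKM in pBKSM and 102 in pOKSM, against 198 in MEF, Twist1 was 13.4 to 16.9 FPKM in the iNSC libraries other than DTA, against 29.4 in MEF, and Col3a1 was 10.3 to 25.8 FPKM in pOKSM and the clones, against 219 in MEF. The endothelial list reached 1 FPKM for 0 of 5 genes in every library. The regional markers of cNSC, labelled as cortex, were mixed: Emx1 was listed at 0 and Emx2 was 0.0251 FPKM, about 1 fragment, whereas Lhx2 was 7.32, Otx1 7.33 and Pax6 9.60 FPKM, and the more posterior En2 and Gbx2 were 22.2 and 11.5 FPKM.

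Across the 10 genes, the highest level in DTA and pBKSM was that of Lhx2, in pOKSM and both clones that of Mab21l2, in cNSC that of En2 and in MEF that of Emx2. Summed over the genes, the level was 28.5 FPKM in DTA and 48.0 in pBKSM, 117 in the pOKSM library, 142 and 149 in the clones, 62.9 in cNSC and 13.3 in MEF. Mab21l2 alone made up 50.8% of the sum in pOKSM and 61.9% and 57.2% in the clones. At 1 FPKM or more there were 5 genes in DTA, 7 in pBKSM, 8 in pOKSM, 6 in clone 1, 7 in clone 3, 7 in cNSC and 2 in MEF.

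**Figure D1:**
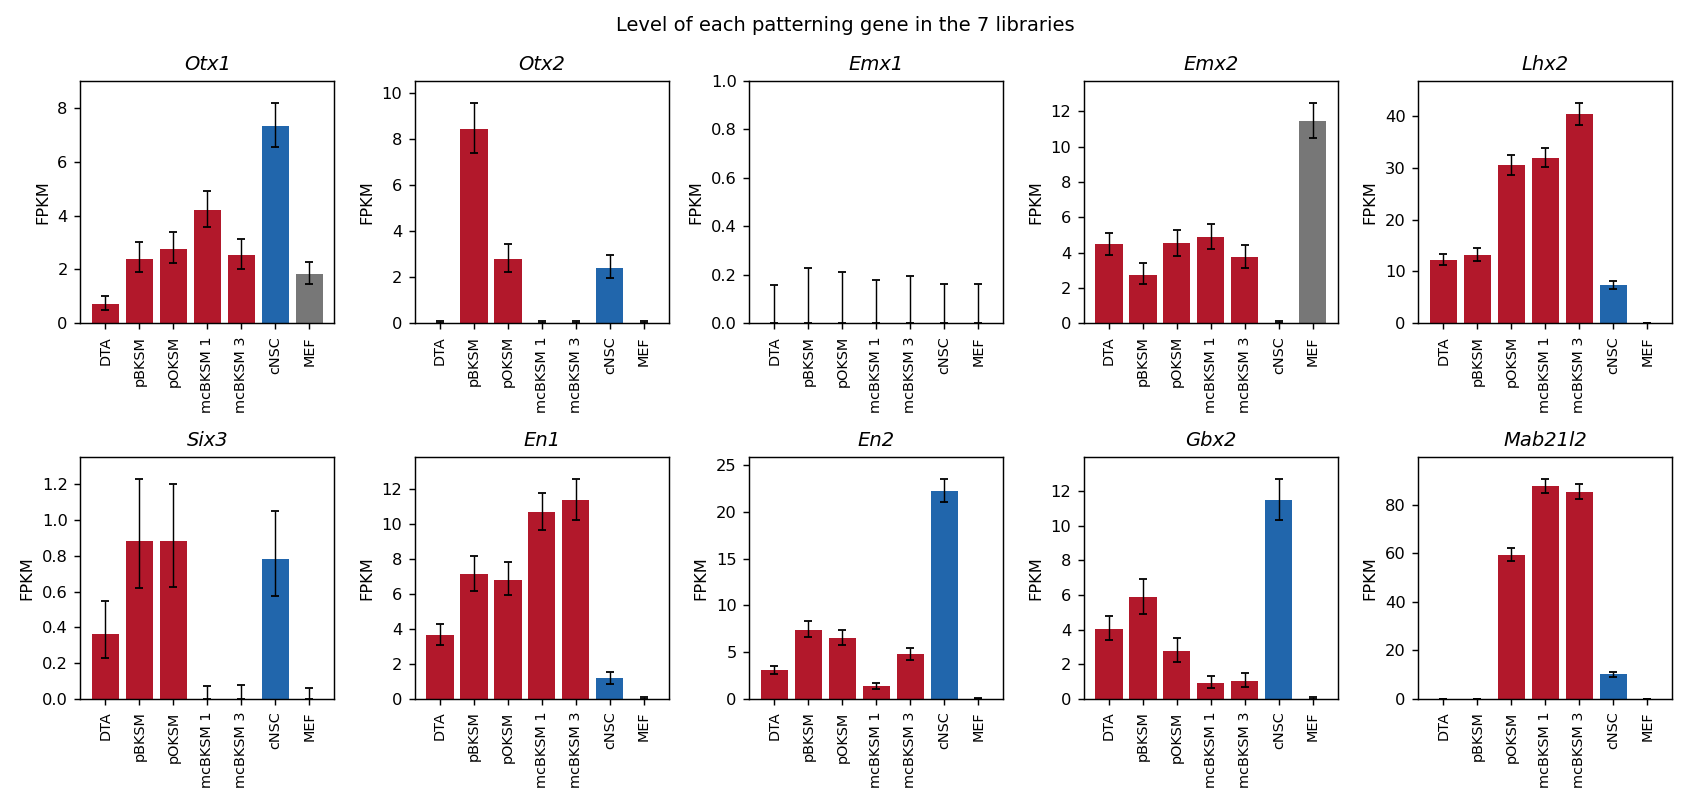
FPKM (vertical axes, each with its own scale) of the 10 genes in the iNSC libraries (red; mcBKSM 1 and 3 are the clones), cNSC (blue) and MEF (grey), with 95% Poisson intervals for counting error. Emx1 has no bar in any library, Emx2 is highest in MEF at 11.4 FPKM, and Mab21l2 is present in pOKSM and both clones but at 0 in DTA and pBKSM.

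Among the forebrain genes, Emx1 was listed at 0 in all 7 libraries, where 3 fragments would be 0.127 to 0.186 FPKM. Its relative Emx2 was 4.47 FPKM in DTA, 2.73 in pBKSM, 4.52 in pOKSM, 4.89 in clone 1 and 3.74 in clone 3, against 0.0251 in cNSC and 11.4 in MEF. Every iNSC library thus lay between the neural and the fibroblast library, and the lines varied little (4.07 ± 0.857 FPKM, SD, n = 5). Emx2 also acts outside the brain, in the urogenital system. It overlaps the antisense gene Emx2os over 264 bases, which was 0.441 to 0.925 FPKM in iNSCs, 0 in cNSC and 1.07 in MEF, and reads of that stretch cannot be assigned without strand.

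Lhx2, a LIM-homeodomain gene needed for eye and cortex, was 12.2 FPKM in DTA, 13.2 in pBKSM, 30.5 in pOKSM, 31.9 in clone 1 and 40.3 in clone 3, against 7.32 in cNSC and 0 in MEF. All 5 lines exceeded cNSC, which lay outside the range of the lines for 45.9% of all genes. The counting intervals of DTA (11.2 to 13.3) and pBKSM (11.9 to 14.5) overlapped, as did those of pOKSM (28.6 to 32.4) and clone 1 (30.2 to 33.7). The upper trio and the lower pair of lines did not overlap.

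Six3 stayed under 1 FPKM throughout and entered no test. It was 0.366 FPKM in DTA, 0.882 in pBKSM, 0.883 in pOKSM and 0.782 in cNSC, and was listed at 0 in both clones and in MEF. These levels rest on about 22 to 45 fragments each, above the 0.0496 to 0.0742 FPKM that 3 fragments would give. The gene overlaps the antisense gene Six3os1, which was 0.0113 FPKM in DTA, 0.361 in pBKSM and 1.57 in pOKSM and at 0 in the other libraries; whether the libraries keep strand is not given, so reads of the pair cannot be told apart.

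Otx1, active in forebrain and midbrain, was found in all libraries. It was 0.726 FPKM in DTA, 2.40 in pBKSM, 2.75 in pOKSM, 4.22 in clone 1 and 2.53 in clone 3, against 7.33 in cNSC and 1.84 in MEF. Otx2, needed for both forebrain and midbrain, was 8.43 FPKM in pBKSM and 2.79 in pOKSM, at 0 in DTA and both clones, 2.42 in cNSC and 0 in MEF. The counting intervals of pOKSM (2.23 to 3.45) and cNSC (1.97 to 2.96) overlapped, while that of pBKSM (7.39 to 9.58) lay above both. Otx2 overlaps Otx2os1 on the other strand, which was at 0 in every library.

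The engrailed pair differed in balance between the iNSC lines and cNSC. En1 was 3.62 FPKM in DTA, 7.11 in pBKSM, 6.80 in pOKSM, 10.7 in clone 1 and 11.4 in clone 3, against 1.18 in cNSC and 0 in MEF. En2 was 3.05 FPKM in DTA, 7.41 in pBKSM, 6.54 in pOKSM, 1.37 in clone 1 and 4.80 in clone 3, against 22.2 in cNSC (interval 21.0 to 23.5) and 0 in MEF. The lines, counting both clones, held more En1 and less En2 than cNSC in 5 of 5 cases. For 45.9% of all genes, cNSC lay outside the range of the lines. The ratio of En2 to En1 was 0.842 in DTA, 1.04 in pBKSM, 0.961 in pOKSM, 0.129 in clone 1 and 0.422 in clone 3, against 18.9 in cNSC. The sum of the pair was 6.67 FPKM in DTA, 14.5 in pBKSM, 13.3 in pOKSM, 12.03 in clone 1, 16.2 in clone 3 and 23.4 in cNSC.

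**Figure D2:**
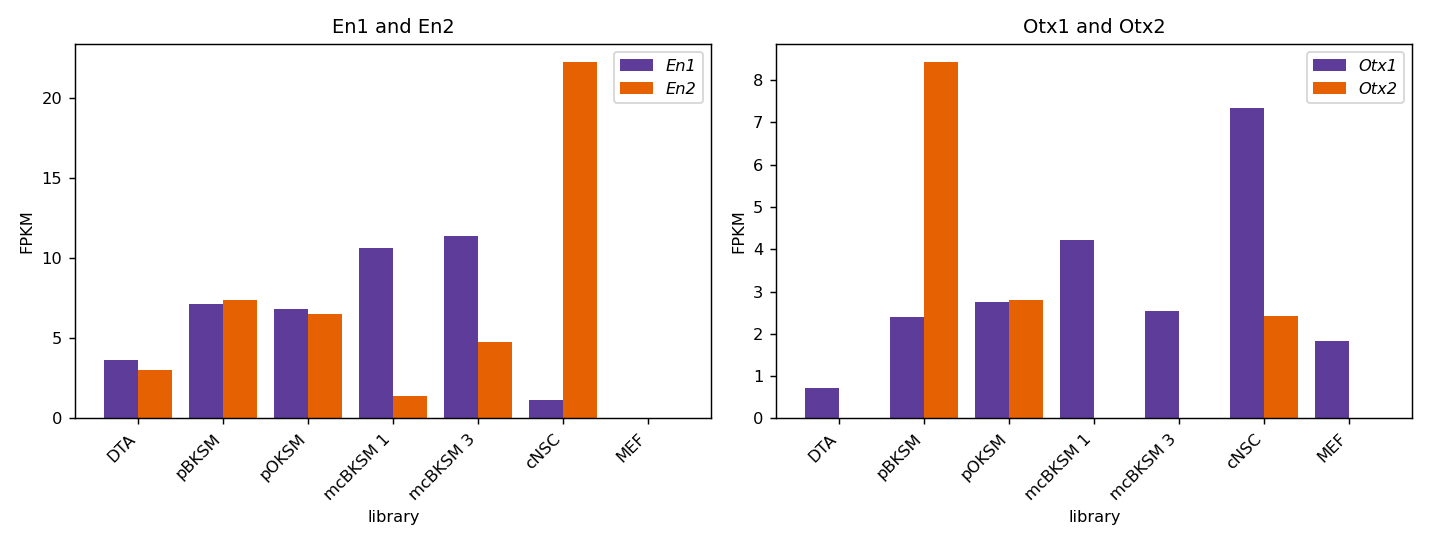
FPKM of En1 and En2 (left) and of Otx1 and Otx2 (right) in each library; each bar is 1 library. En2 far exceeds En1 in cNSC (22.2 and 1.18 FPKM), whereas En1 exceeds En2 in both clones, and Otx2 exceeds Otx1 clearly in pBKSM alone (8.43 and 2.40 FPKM).

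Gbx2, which specifies the anterior hindbrain, was 4.03 FPKM in DTA, 5.86 in pBKSM, 2.77 in pOKSM, 0.926 in clone 1 and 1.02 in clone 3, against 11.5 in cNSC and 0 in MEF. The clones, highest of the iNSC lines for En1 and Lhx2, were lowest for Gbx2. The intervals of the clones overlapped (0.611 to 1.35 and 0.673 to 1.49), and so did those of DTA (3.39 to 4.78) with pOKSM (2.14 to 3.50). In pBKSM, pOKSM and cNSC, Gbx2 and Otx2 were present in the same library.

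The starts of En1, Gbx2 and Lhx2 are shown because the clones were highest for En1 and lowest for Gbx2, and Lhx2 had the highest level of the homeodomain genes in iNSCs. The bases come from RefSeq windows on GRCm38.p6, cut to end before the first exon base of the gene in GENCODE M21, and are read 5′ to 3′ on the strand of the gene. En1 is chr1:120602237-120602417 on the plus strand, Gbx2 is chr1:89931180-89931426 on the minus strand and Lhx2 is chr2:38339031-38339280 on the plus strand. Capitals mark the E-box CACGTG, the sequence bound by MYC with MAX.
En1: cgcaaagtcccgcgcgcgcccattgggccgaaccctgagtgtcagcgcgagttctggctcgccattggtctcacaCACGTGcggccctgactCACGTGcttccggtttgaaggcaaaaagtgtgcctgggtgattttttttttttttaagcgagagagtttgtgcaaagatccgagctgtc
Gbx2: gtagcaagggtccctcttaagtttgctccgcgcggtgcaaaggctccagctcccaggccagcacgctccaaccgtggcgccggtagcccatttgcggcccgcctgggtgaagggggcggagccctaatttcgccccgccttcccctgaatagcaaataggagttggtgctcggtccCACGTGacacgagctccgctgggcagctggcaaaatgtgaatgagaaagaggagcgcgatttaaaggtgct
Lhx2: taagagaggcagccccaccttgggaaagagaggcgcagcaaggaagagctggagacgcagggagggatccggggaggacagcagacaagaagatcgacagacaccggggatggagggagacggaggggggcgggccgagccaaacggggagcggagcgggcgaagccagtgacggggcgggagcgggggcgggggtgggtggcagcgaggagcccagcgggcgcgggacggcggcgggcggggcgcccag

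In all, 5 short motifs were searched on both strands in the 250 bases before each annotated RefSeq start, for which 8 of the 10 genes had 12 windows. The E-box CACGTG occurred in 6.02% of all 32851 windows, and among the patterning genes it was in those of En1, with 2 copies, and Gbx2, with 1. The POU octamer ATGCAAAT (1.60% of all windows), the SOX core ACAATG (10.7%) and the KLF box CCACACCC (3.20%) had no match in the 12 windows. The homeodomain core TAATTA (4.84% of all windows) was found in 2 of the 4 windows of Otx2. These matches describe letters and not binding.

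Mab21l2 had the widest range of FPKM across the iNSC lines, 0 to 87.7; relative to the mean, Otx2 and Six3 varied more (coefficients of variation of 163% and 104%, against 94.4% for Mab21l2). It was 59.3 FPKM in pOKSM, 87.7 in clone 1 and 85.3 in clone 3, and was listed at 0 in DTA and pBKSM, where 3 fragments would be 0.0690 and 0.103 FPKM. It was 10.1 FPKM in cNSC and 0 in MEF. Mab21l2 (chromosome 3, 86545581 to 86548629, GRCm38) lies within Lrba on the opposite strand. Lrba was 4.19 FPKM in DTA, 2.48 in pBKSM, 10.6 in pOKSM, 15.8 in clone 1, 15.1 in clone 3, 5.37 in cNSC and 2.94 in MEF, high and low in the same lines, and the part of shared reads in this was not tested. The close relative Mab21l1 did not follow: it was 0.165 FPKM in pBKSM, 0 in the other iNSC libraries, 8.14 in cNSC and 0.422 in MEF.

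The 5 iNSC libraries were first compared with MEF, which asks how the lines differed from fibroblasts. Conversion cannot be told apart here from growth in medium for neural stem cells, nor, for DTA, from genotype. Of the 10 genes, 8 reached 1 FPKM in some library and were tested with limma-trend on log2(FPKM + 1), with p-values adjusted by Benjamini-Hochberg over all 13042 genes tested; called means an adjusted p under 0.05. Lhx2 and En1 were higher in iNSCs than in MEF and Emx2 was lower. Lhx2 was 25.6 ± 12.4 FPKM (SD, n = 5) in iNSCs and 0 in MEF, a difference of 4.59 ± 0.72 (SE, adjusted p = 0.0118). En1 was 7.91 ± 3.15 FPKM in iNSCs and 0 in MEF, a difference of 3.07 ± 0.56 (adjusted p = 0.0192). Emx2 differed by -1.31 ± 0.31 (adjusted p = 0.0421). Limma called 16.3% of all genes here, 6.77% higher and 9.55% lower in iNSCs, beside 3 of the 8 patterning genes. The balance of directions over all genes turned with the pseudocount: 883 genes were higher and 1245 lower with 1, and 1175 higher and 1057 lower with 0.1. The summed level of 10 fibroblast genes was 8.96 to 267 FPKM in iNSCs and 4632 in MEF, and its part in the Emx2 values was not tested.

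En2 and Gbx2 lay above MEF in 5 of 5 lines without passing, although a pseudocount of 0.1 gave calls for both (limma adjusted p = 0.0167 for En2 and 0.0430 for Gbx2), as did leaving out clone 1 for En2 (0.0385). MEF lay outside the range of the lines for 63.4% of all genes. En2 was 4.63 ± 2.48 FPKM in iNSCs and 0 in MEF (difference 2.36 ± 0.71, adjusted p = 0.0817), and Gbx2 was 2.92 ± 2.09 FPKM in iNSCs and 0 in MEF (1.80 ± 0.77, adjusted p = 0.174). Otx1 at 2.53 ± 1.24 FPKM in iNSCs and 1.84 in MEF gave 0.23 ± 0.57 (adjusted p = 0.807). Otx2 (1.03 ± 1.38, adjusted p = 0.635) and Mab21l2 (3.76 ± 3.19, adjusted p = 0.458) were 0 in MEF and in some lines. The median difference of the 8 genes was 2.08, against 0.03 for all genes tested. Lhx2, En1, En2, Gbx2, Otx2 and Mab21l2 were 0 in MEF, so they could not fall below it. The median is therefore read as no result about the set. The call of En1 ended without pOKSM (adjusted p = 0.0583), and that of Emx2 ended without pOKSM (0.0991), clone 1 (0.0699) or clone 3 (0.0955). The call of Emx2 also ended with a pseudocount of 0.1 (adjusted p = 0.0665), no filter (0.0522), median scaling (0.0514) and clones averaged (0.0759). That of Lhx2 held under each of these alternatives.

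Against cNSC, which asks how close the lines came to embryo-derived cells, Emx2 was the gene called: 4.07 ± 0.857 FPKM in iNSCs and 0.0251 in cNSC, a difference of 2.29 ± 0.31 (SE, adjusted p = 0.0413). Limma called 1.17% of all genes in this comparison, 0.207% higher in iNSCs and 0.958% lower. The call of Emx2 ended without pOKSM (adjusted p = 0.173), clone 1 (0.124) or clone 3 (0.145), with a filter at 5 FPKM (0.0534) and with clones averaged (0.122). This comparison shares its iNSC libraries with the one against MEF. Of the markers of other cell states, the astrocyte and neuron genes were not called here, and their differences are given as values. The median difference was -0.91 for the astrocyte genes and 0.35 for the neuron genes, against 0.00 for all genes. Of the astrocyte genes, Gfap differed most, by -7.19, while S100b (0.40) and Aldoc (0.20) went the other way. Their part in the patterning differences was not tested.

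The other genes did not pass, and genes of the same region went both ways. En1 (difference 1.95 ± 0.56, adjusted p = 0.239) and Lhx2 (1.53 ± 0.72, adjusted p = 0.423) were higher in 5 of 5 iNSC libraries than in cNSC. En2 (-2.18 ± 0.71, adjusted p = 0.296), Gbx2 (-1.85 ± 0.77, adjusted p = 0.384) and Otx1 (-1.33 ± 0.57, adjusted p = 0.393) were lower in 5 of 5. With Emx2, 6 of 8 genes had cNSC outside the range of the lines, against 45.9% of all genes. Without DTA, En1 was called (2.17, adjusted p = 0.0472). Mab21l2 (0.29 ± 3.19, adjusted p = 0.977) and Otx2 (-0.74 ± 1.38, adjusted p = 0.818) had cNSC within the range of the lines, and the sign for Mab21l2 turned with 1 clone or pOKSM left out. The median difference of the 8 genes was -0.23, against 0.00 for all genes.

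**Figure D3:**
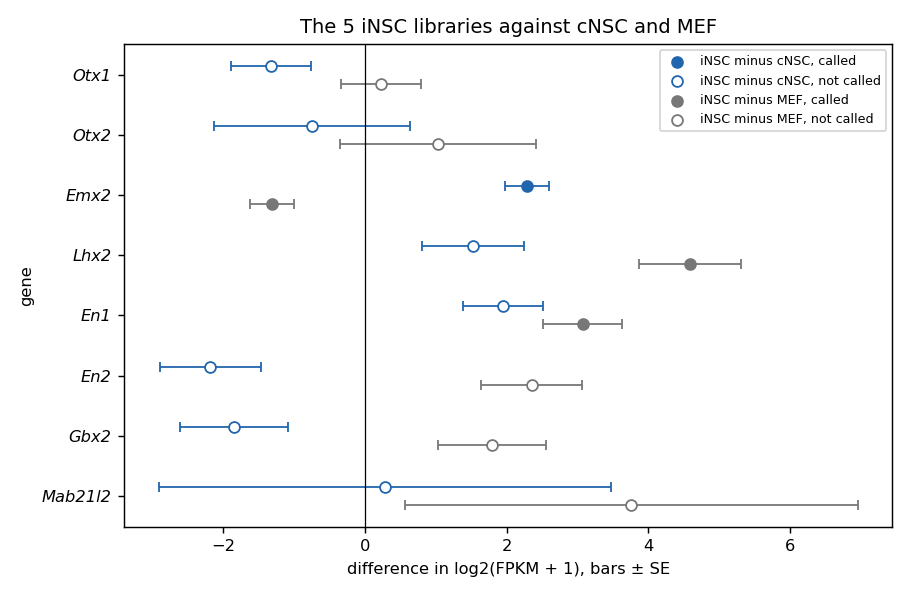
Difference in log2(FPKM + 1) of the 8 tested genes (rows) for iNSC minus cNSC (blue) and iNSC minus MEF (grey), with bars of ± SE; filled points have an adjusted p under 0.05 by limma. Emx2 lies on opposite sides of 0 in the comparisons (2.29 against cNSC and -1.31 against MEF), and Lhx2 has the largest difference against MEF, 4.59.

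Single pairs of libraries were also set side by side, counting genes of at least 1 FPKM in either library that differed 2-fold or more on the log2(FPKM + 1) scale. DTA and cNSC differed so at 7 of 8 patterning genes and at 12.1% of all genes, and clone 3 and cNSC at 8 of 8 and 26.3%. The other lines differed from cNSC at 6 of 8 and 18.5% (pBKSM), 7 of 8 and 20.6% (pOKSM) and 7 of 8 and 25.1% (clone 1). Clone 1 and clone 3 differed at 1 of 7 patterning genes, which was En2, and at 1.71% of all genes. The pOKSM library differed from clone 3 at 1 of 8 and from clone 1 at 2 of 8, beside 3.22% and 3.86% of all genes. With 1 library on each side, these pairs have no replicate check, and other pairs are not reported here.

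The pBKSM line and the mcBKSM clones share the letters BKSM and differ in the prefix read as the kind of vector. Otx2 and Gbx2 were higher in pBKSM and Mab21l2 was lower. Otx2 was 8.43 FPKM in pBKSM and 0 in both clones, a difference of 3.24 ± 0.05 (SE, adjusted p = 0.0367). Gbx2 was 5.86 FPKM in pBKSM, against 0.926 and 1.02 in the clones, a difference of 1.80 ± 0.10 (adjusted p = 0.0451). Mab21l2 was 0 in pBKSM, against 87.7 and 85.3 FPKM in the clones, a difference of -6.45 ± 0.13 (adjusted p = 0.0367). Across all 13042 genes limma called 5.82%, of which 3.74% were up and 2.08% down in the polycistronic line, and 85.8% had pBKSM outside the range of the clones. Spread within a group came from the 2 clones alone, with 1 residual degree of freedom, and pBKSM was assumed to vary like them. Limma drew the error of each gene towards a trend over all genes. Otx2 was 0 in both clones, so its SE rests on that trend and not on a spread of its own. The call of Gbx2 ended with a pseudocount of 0.1 (limma adjusted p = 0.0570) and without the filter on low values (0.0699).

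The remaining 5 tested genes did not pass in pBKSM against the clones. A call for Lhx2 appeared only when the 3 BKSM libraries were fitted alone, which also raised the count over all genes. Lhx2 was 13.2 FPKM in pBKSM, against 31.9 and 40.3 in the clones (difference -1.38 ± 0.22, adjusted p = 0.0852). En1 (-0.57 ± 0.13, adjusted p = 0.121), Emx2 (-0.50 ± 0.21, adjusted p = 0.234) and Otx1 (-0.34 ± 0.34, adjusted p = 0.531) were below the clones and En2 above (1.18 ± 0.75, adjusted p = 0.357). Markers of other cell states moved between the same libraries. Of 6 astrocyte genes, 3 were called higher in pBKSM and 0 lower (S100b, Aldoc and Aldh1l1), with a summed level of 499.7 FPKM in pBKSM, against 107 and 103 in the clones, most of it Aldoc. Of 8 neuron genes, 3 were called lower in pBKSM (Rbfox3, Syt1 and Stmn2) and 1 higher (Neurod1), and their median difference was -1.51, against 0 for all genes. Rbfox3 was 1.62 FPKM in pBKSM, against 29.7 and 26.0 in the clones, and Syt1 was 9.55 FPKM in pBKSM, against 43.0 and 46.4 in the clones. The summed level of the neuron genes pointed the other way, 277 FPKM in pBKSM against 204 and 258 in the clones, with Map2 at 259 in pBKSM, against 113 and 160 in the clones; Snap25 and Stmn2 were at 0 in pBKSM. Of the fibroblast genes, Fbln2 was called higher in pBKSM (248.6 FPKM, against 26.9 and 21.8 in the clones; limma adjusted p = 0.0440). Their part in the patterning differences was not tested.

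**Figure D4:**
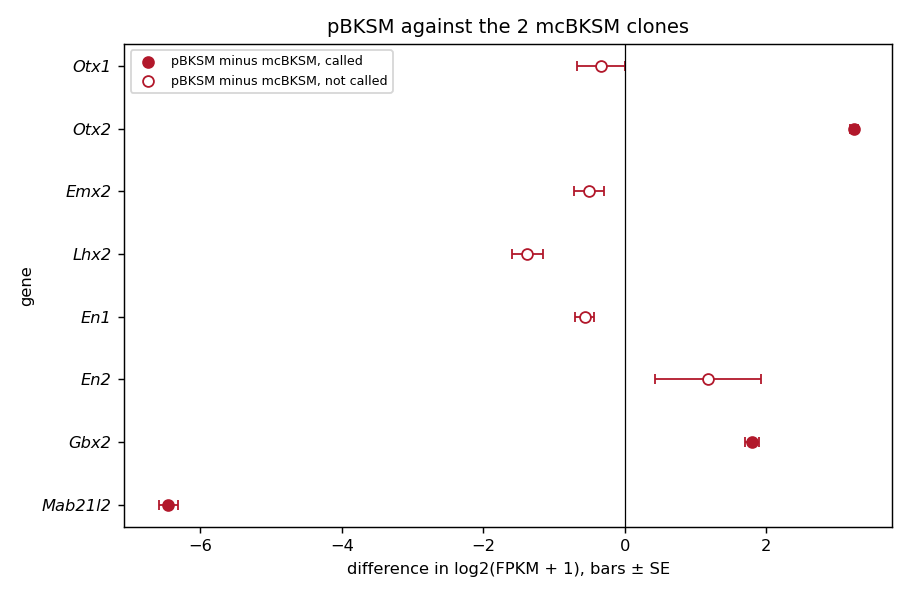
Difference in log2(FPKM + 1), pBKSM minus the mean of the 2 mcBKSM clones, for the 8 tested genes (rows). Bars are ± SE from limma, which draws the spread between the clones towards a trend over all genes. Filled points have an adjusted p under 0.05 by limma. Mab21l2 stands far to the left at -6.45, and Otx2 (3.24) and Gbx2 (1.80) are the called genes to the right.

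With pOKSM added, so that both polycistronic lines stood against both clones, 0 of 8 genes were called. Limma called 0.0165% of 12091 genes, or 2 genes, with 1014 at an unadjusted p under 0.05. Otx2 was higher in the polycistronic lines (8.43 and 2.79 FPKM in pBKSM and pOKSM, 0 in both clones; difference 2.58 ± 0.50, adjusted p = 0.524), as was Gbx2 (5.86 and 2.77 FPKM, against 0.926 and 1.02 in the clones; 1.37 ± 0.37, adjusted p = 0.524). Mab21l2 differed by -3.49 ± 1.89 (adjusted p = 0.526), with 0 FPKM in pBKSM and 59.3 in pOKSM. En1 (6.80 and 7.11 FPKM, against 10.7 and 11.4 in the clones) differed by -0.59 ± 0.19 (adjusted p = 0.524); the lines did not overlap the clones for 52.1% of all genes. Without pOKSM, only pBKSM was left against the clones, which repeats the comparison of those libraries given above. The differences were then 3.24 for Otx2, 1.80 for Gbx2, -6.45 for Mab21l2 and -1.38 for Lhx2.

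In DTA against the other 4 iNSC libraries, 0 of 8 genes were called, where limma called 0.355% of 12378 genes (44 genes, and 2533 at an unadjusted p under 0.05). DTA was the lowest iNSC library for Otx1 (difference -1.18 ± 0.32, adjusted p = 0.151), En1 (-1.08 ± 0.35, adjusted p = 0.197) and Lhx2 (-1.08 ± 0.61, adjusted p = 0.373), and stood outside the others for 58.8% of all genes. Emx2 (0.16 ± 0.32, adjusted p = 0.783), Gbx2 (0.67 ± 0.78, adjusted p = 0.638) and En2 (-0.42 ± 0.75, adjusted p = 0.756) lay within the range of the other lines. Mab21l2 (-4.70 ± 2.76) and Otx2 (-1.29 ± 1.40) were at 0 in DTA, as in some of the other lines, so the groups overlapped. Without pBKSM, the differences of DTA from the rest were -6.27 for Mab21l2, -1.41 for Lhx2 and -1.25 for Otx1. The pBKSM line, like DTA, had Mab21l2 at 0 and low Lhx2, so leaving it out was bound to widen those differences. Against all 4 other lines, the median difference was 2.29 for the astrocyte genes and -1.18 for the neuron genes, against -0.01 for all genes. Their part in the patterning values of DTA was not tested.

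Other regional genes gave the surroundings of these patterns. Of 18 further forebrain genes, 9 were tested against MEF, where Pax6, a regulator of cortical and eye progenitors, rose (8.28 ± 2.73 FPKM in iNSCs and 0 in MEF; difference 3.17 ± 0.42, adjusted p = 0.00695). Against cNSC 0 of 9 were called; Bcl11b (1.27 ± 0.59, adjusted p = 0.421) and Nr2f2 (1.08 ± 0.54, adjusted p = 0.447) had the largest differences. In pBKSM against the clones, Dmrta2, a regulator of dorsal telencephalic progenitors, was higher (4.40 FPKM, against 0.241 and 0.399; adjusted p = 0.0451). Six6, Rax, Hesx1 and Nkx2-1, genes of eye field and ventral forebrain, reached at most 0.106 FPKM in any library.

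Of 18 further midbrain and isthmus genes, the organizer genes Pax2, Pax5, Pax8 and Wnt1 stayed at or under 0.0834 FPKM in every library, and Fgf8, the signal of the midbrain-hindbrain organizer, was 0.612 FPKM at most, in DTA; these 5, like the 4 forebrain genes at most 0.106 FPKM above, were named after their values were seen. Among the 8 tested, Pax3 fell against MEF (0 to 0.900 FPKM in iNSCs and 3.16 in MEF; difference -1.67 ± 0.34, adjusted p = 0.0276) and Mab21l1 was lower than in cNSC (-3.15 ± 0.14, adjusted p = 0.000974). In pBKSM against the clones, Dmbx1, a midbrain homeobox gene, was higher (1.59 FPKM, against 0 and 0.0191; adjusted p = 0.0367). In DTA, Irx1 was higher than in the other lines (17.2 FPKM, against at most 0.0911, a difference of 4.12). So was Pax7, a dorsal midbrain gene (3.50 FPKM in DTA, against at most 0.0387 in the others, a difference of 2.15). The spread for both genes came from lines near 0, and DTA, as 1 library, added none, so only the differences are given. Neither gene was particular to DTA: cNSC had Irx1 at 14.97 and Pax7 at 4.99 FPKM. MEF had Irx1 at 18.8 FPKM and Pax7 at 0.

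Of 16 further hindbrain genes, 12 were tested against MEF and cNSC and 0 were called in either; Hoxb3 differed most in both (2.45 ± 1.78, adjusted p = 0.391, and 3.17 ± 1.78, adjusted p = 0.484). In pBKSM against the clones, Hoxb3 (0 FPKM, against 17.1 and 22.7) and Hoxb2 (0 FPKM, against 10.3 and 11.9) were lower, with limma adjusted p of 0.0451 and 0.0397. The Hoxb2, Hoxb3, Hoxb4, Hoxd3 and Hoxd4 genes were at 0 in pBKSM and in cNSC alike, and between 2.65 and 22.7 FPKM in DTA, pOKSM and the clones; Hoxb4, Hoxd3 and Hoxd4 were picked with these values known. Egr2, which marks rhombomeres in the embryo, was 10.7 FPKM in pBKSM and 2.40 to 3.53 in the other lines, against 11.2 in cNSC and 0.634 in MEF; it too was picked with its values known. Between the polycistronic lines and the clones 0 genes of these lists were called, and in DTA against the other lines 0 forebrain and 0 hindbrain genes.

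**Figure D5:**
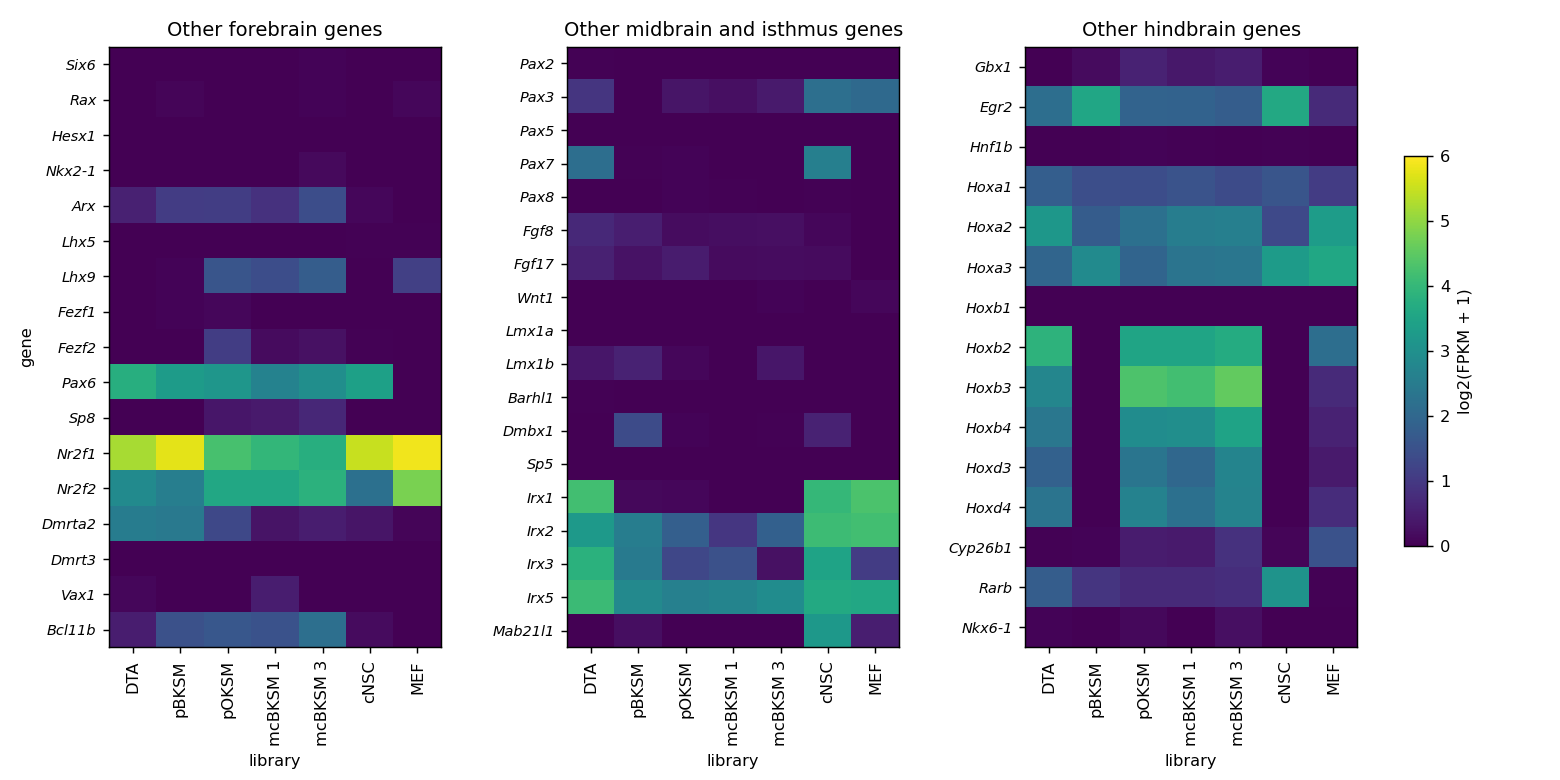
log2(FPKM + 1) by colour for other forebrain, midbrain and isthmus, and hindbrain genes (rows) in each library (columns). Hoxb2, Hoxb3, Hoxb4, Hoxd3 and Hoxd4 are at 0 in pBKSM and cNSC, and Irx1 is bright in DTA (17.2 FPKM), cNSC and MEF.

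Genes for partner proteins were measured too. Of 24 tested cofactor genes, 5 rose and 0 fell against MEF, where 16.3% of all genes were called, so the count is read as no result about the list. The 5 were Lmo1 (30.9 ± 20.5 FPKM in iNSCs and 0 in MEF; difference 4.80 ± 0.74, adjusted p = 0.0114), Lmo3 (17.1 ± 6.14 in iNSCs and 0 in MEF; 4.11 ± 0.49, adjusted p = 0.00467), Lmo4 (75.9 ± 16.2 in iNSCs and 28.4 in MEF; 1.36 ± 0.32, adjusted p = 0.0403), Eya4 and Tle2. The LMO proteins compete with LIM-homeodomain factors such as Lhx2 for the adaptor Ldb1. Tle2, a Groucho-type corepressor gene, was 38.4 ± 7.12 FPKM in iNSCs, above both 5.004 in cNSC (2.69 ± 0.29, adjusted p = 0.0180) and 5.28 in MEF (2.63 ± 0.29, adjusted p = 0.00334). Its relative Tle4 was 1.77 FPKM in DTA, against 23.4 to 36.5 in the other iNSC libraries (-3.41 ± 0.31, adjusted p = 0.0419). Eya1 was higher in pBKSM than in the clones (3.61 FPKM, against 0.639 and 0.532; adjusted p = 0.0470).

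The genes whose log2(FPKM + 1) followed each patterning gene most closely were found by Pearson r over the 7 libraries, which all genes share, so r is a description. Nearest to Mab21l2 were Lingo3 (r = 0.994), Chuk, an IκB kinase gene (0.990), and Rwdd4a (0.990), with Lingo3 at 13.7 to 19.1 FPKM in pOKSM and the clones, 0.393 in DTA, 0.526 in pBKSM, 3.79 in cNSC and 0 in MEF. Nearest to Otx2 were the GABA receptor gene Gabra2 (0.989), Ndufaf4 (0.971) and the collagen gene Col9a3 (0.961). Gbx2 lay closest to the RNA-binding protein gene Qk (0.995), to Car2 (0.993) and to Wnt7b (0.989). En1 lay closest to Acyp1 (0.999), Plgrkt (0.991) and Osgep (0.991), and En2 to Serinc1 (0.984) and Zswim6 (0.981).

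Lhx2 followed Myl12b (0.999), Zfp286 (0.995) and the calcium channel gene Cacna1h (0.995). Emx2 followed the mitosis genes Melk (0.982), Dlgap5 (0.976) and Kif2c (0.974), each highest in MEF and lowest in cNSC. Otx1 followed Tomm40, the mitochondrial import pore gene (0.980), Trmt61a (0.965) and Dph1 (0.959). Within the set, En1 and Lhx2 were nearest to each other (r = 0.945), as were En2 and Gbx2 (0.898).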

How the data were processed

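FPKM values for 7 libraries were used as the authors deposited them. The submitters' processing notes list the build mm10 and, as tools, Cuffnorm, Cufflinks 2.2.1, R 3.3.2 and STAR 2.5.2b. What each did, its settings and whether strand was kept is not given in the sources. Per the labels' protocols, RNA of 2 to 3 biological replicates was pooled per library. FPKM is scaled to library size, so changes in total RNA cannot be seen.

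Values were used as log2(FPKM + 1), which understates changes of low genes. A fit took in each gene with at least 1 FPKM in any of its libraries. The test was limma-trend (version 3.58.1 under R 4.3.3), checked on simulated data, with Benjamini-Hochberg adjustment over all genes. The class comparisons used 3 classes in 1 fit (4 residual degrees of freedom), pBKSM against mcBKSM the 6 label groups, and the others the libraries concerned. Lines stand as replicates, both clones counted as lines, so p-values measure spread between lines. In pBKSM against mcBKSM the spread is that between the clones. A group of 1 library adds no spread and is assumed to vary like the others. The simulated data were drawn under the same assumption, so they could not check it. Limma draws the error of each gene towards a trend over all genes.

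Depth was fitted to the steps in 418 to 539 low values per library of genes with 1 transcript; 75.5% to 83.7% lay within 0.15 of a whole number of fragments, where 30% would by chance. Fragment counts of a gene use its longest coding transcript in GENCODE M21 and are approximate.

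The patterning genes and all lists were chosen with earlier results of these data known. Named list genes were up to 4 called genes of largest difference per list, or 2 as values. The 3 genes of highest r, with at least 5 FPKM in some library, were named for each patterning gene reaching 5 FPKM. Some genes these rules select are not reported here.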

Additional observations from a re-analysis of the deposited data

Results flagged for a closer look

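The pBKSM line and the mcBKSM clones differed at 3 genes: set against any common library, their effects differed by 1.80 for Gbx2, by 3.24 for Otx2 and by -6.45 for Mab21l2 in log2(FPKM + 1) (limma, pBKSM minus clones, adjusted p = 0.0451, 0.0367 and 0.0367). Otx2 lay above cNSC in pBKSM and below it in the clones, and Mab21l2 lay below cNSC in pBKSM and above it in the clones. Of the 5 iNSC libraries, none stood apart from the others by Dixon's criterion for any of the 10 genes.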

How the results depend on the processing

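No paired analysis was possible because only mcBKSM has more than 1 library, so the groups share fewer than 2 replicate numbers. Over all alternatives for single patterning genes, 337 values kept direction and side of the threshold, 12 gained a call, 15 lost it and 8 changed sign. The cause was not tested for any of them. Changed signs were those of Mab21l2 in iNSC minus cNSC (-0.93 with a pseudocount of 0.1, -0.38 with clones averaged, -0.39 to 1.23 with 1 line left out), of Otx1 (-0.55 to 0.018) and Emx2 (-0.50 to 0.063) in polycistronic minus monocistronic with 1 line left out, and of Emx2 in DTA minus the other lines with quantile normalization (-0.012).

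Against MEF, leaving out 1 line gave 1147 (without pOKSM) to 3193 (without DTA) called genes and 1 to 3 called patterning genes. With no filter, 901 genes were higher and 2109 lower. Against cNSC, 74 genes were called with a pseudocount of 0.1, 618 with no filter, 74 with a filter at 5 FPKM and 63 with clones averaged, and 50 (without pOKSM) to 883 (without DTA) with 1 line left out; 0 patterning genes were called with the 5 FPKM filter or clones averaged, and 0 to 2 with 1 line left out. In pBKSM against the clones, the filter at 5 FPKM gave 1454 genes and the fit of 3 BKSM libraries 2536; with no filter 677 were higher and 104 lower, against 488 and 271 as reported; leaving out a clone there leaves no residual degrees of freedom and was not run. The call of Gbx2 there ended with a pseudocount of 0.1 (adjusted p = 0.0570) and with no filter (0.0699), both by limma. For the polycistronic lines, a pseudocount of 0.1, no filter and the 5 FPKM filter each gave 0 genes, and 1 line left out gave 0 to 2536 (without pOKSM), with 0 to 4 patterning genes. For DTA, the counts were 17 with a pseudocount of 0.1, 583 with no filter, 16 with the 5 FPKM filter, 2 with clones averaged and 0 (without clone 1) to 3951 (without pBKSM) with 1 line left out, with 0 to 3 patterning genes. By Spearman's rho, 8 of the 24 genes nearest by Pearson r stayed among the nearest. Levels under about 0.1 FPKM rest on 3 fragments or fewer.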
